A study of Mus musculus with 2 samples.

Results

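Immediate early genes are switched on within minutes of a stimulus, without new protein synthesis, and their transcripts are short-lived. The 10 genes described here were Fos, Fosb, Jun, Junb, Jund, Atf3, Egr1, Nr4a1, Ier2 and Dusp1. They were taken by gene symbol from a list, out of 22180 genes with a probe set of their own on the array. Each gene was represented by the probe set with exactly that 1 symbol and the highest mean of both arrays. Of the 10 genes, 9 had a single probe set and Jund had 2, and none lay on a probe set shared with another gene.

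The 2 arrays held RNA of spleen cells from Fx-/- mice, which lack an enzyme of GDP-fucose synthesis and depend on supplied fucose for fucosylated glycans. One array was of fucose-treated mice (on fucose) and the other of Fx-/- mice with no fucose treatment (off fucose), and no array of mice with intact Fx was analysed here. Per the labels, cells carrying B220 or CD11b were removed with beads, cells with CD11c were then selected, and the product was labelled as conventional type 1 dendritic cells (cDC1). The sources used here do not give the number, age or sex of the mice. Each group has 1 array, so there is no spread between replicates, no difference below was tested, and the number of arrays limits the precision.

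Values are log2 intensities, and differences are given as the off-fucose value minus the on-fucose value. A difference of 1 is a 2-fold change. The median of all probe sets was 2.81 on fucose and 2.82 off fucose, and 11090 genes whose mean of both arrays was at least 2.88 passed the expression filter. All 10 genes passed it. Markers of T cells were bright on both arrays (Cd3e, which encodes a subunit of CD3, had 10.97 and 10.55), whereas the cDC1 marker gene Xcr1 had 2.90 and 3.43 and Itgax, which encodes CD11c, had 3.83 and 3.86. The RNA therefore did not show Xcr1 or Itgax at high intensity, although a probe set that responds poorly also gives a low value. Some other genes used here as cDC1 markers were brighter, such as Naaa (5.97 and 8.36) and Irf8 (4.18 and 6.69), and others were dim. Xist, the RNA of the inactive X chromosome, had 8.26 on fucose and 2.82 off fucose, and the Y-linked gene Uty had 2.14 and 5.26. These sex-linked genes were looked at with their values known, and the part of sex in any difference cannot be told apart from that of fucose.

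In the AP-1 complex, proteins of the Fos family pair with proteins of the Jun family through leucine zippers and bind DNA, and ATF3 can join Jun proteins in the same way. EGR1 is a zinc finger factor and NR4A1 (Nur77) an orphan nuclear receptor whose gene is induced by antigen receptor signals in lymphocytes. DUSP1 is a phosphatase that removes the activating phosphates of MAP kinases, the enzymes that drive much of this induction, and IER2 is a nuclear protein of the same early wave. In spleen cells these genes respond to antigen receptor, Toll-like receptor and growth factor signals, and also to the warming and handling of tissue during cell isolation.

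All 10 genes had higher intensities off fucose, by 0.24 to 1.10 on the log2 scale. The median difference was 0.69, against -0.05 over all genes past the filter, where 42.2% had a positive difference. The Nr4a1 and Atf3 values were at least 2-fold higher off fucose, which makes 2 of 10 genes beside a background of 2.37% of all genes at least 2-fold higher. None of the 10 was at least 2-fold lower, a class that held 0.514% of all genes. At 1.5-fold, 6 of the 10 genes were higher, beside 5.77% of all genes, and 0 of 10 were lower, beside 4.27%. These counts describe 10 genes chosen with earlier results of the same arrays known, and the shares are no test.

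**Figure D1:**
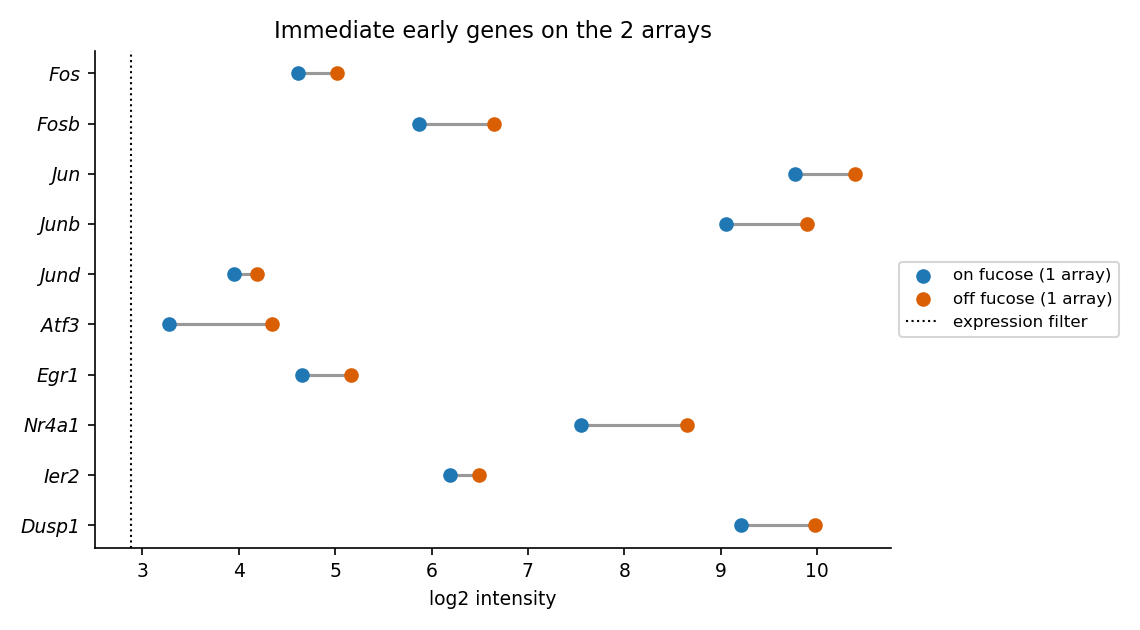
Log2 intensity (horizontal axis) of each of the 10 immediate early genes (rows) on the on-fucose array (blue) and the off-fucose array (orange), 1 array each, with the expression filter at 2.88 as a dotted line. In every row the off-fucose point lies to the right, with the longest lines for Nr4a1 and Atf3 and the shortest for Jund.

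Promoters of 8 of the 10 genes were searched, and those of Egr1 and Ier2 were not. The 8 promoters were taken by symbol from RefSeq promoter windows of the GRCm38.p6 build. Each window runs from 250 bases before to 50 bases after a start site. Several of these genes are textbook targets of CREB and ATF proteins, which bind the cAMP response element TGACGTCA or its 5-base core TGACG, so the windows are shown for that core. Searched on both strands, TGACG was in 6 of the 8 windows and in 20.8% of all 32851 windows. The 150 bases before the start site are set out below for those 6 genes, 5′ to 3′ on the gene's strand, with TGACG or its reverse complement CGTCA in capitals.
Nr4a1: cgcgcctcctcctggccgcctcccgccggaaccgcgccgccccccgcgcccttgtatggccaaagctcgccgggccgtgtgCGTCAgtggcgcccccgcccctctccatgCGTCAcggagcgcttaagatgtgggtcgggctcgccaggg
Atf3: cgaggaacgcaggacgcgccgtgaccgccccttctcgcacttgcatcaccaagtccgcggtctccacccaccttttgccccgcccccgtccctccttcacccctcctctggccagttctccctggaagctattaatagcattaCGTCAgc
Fos: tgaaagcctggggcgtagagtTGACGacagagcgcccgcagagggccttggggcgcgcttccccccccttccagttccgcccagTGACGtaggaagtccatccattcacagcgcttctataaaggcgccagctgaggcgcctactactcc
Fosb: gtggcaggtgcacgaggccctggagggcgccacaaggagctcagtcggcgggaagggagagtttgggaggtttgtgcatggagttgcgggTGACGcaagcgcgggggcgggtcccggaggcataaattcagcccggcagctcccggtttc
Junb: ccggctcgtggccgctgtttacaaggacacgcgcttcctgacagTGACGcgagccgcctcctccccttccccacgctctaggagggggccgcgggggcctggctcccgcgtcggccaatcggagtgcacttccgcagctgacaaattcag
Dusp1: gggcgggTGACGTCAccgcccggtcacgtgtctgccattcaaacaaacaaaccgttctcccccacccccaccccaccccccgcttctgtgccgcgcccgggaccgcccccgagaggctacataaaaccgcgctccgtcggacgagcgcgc

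The stretches lie at chr15:101266696-101266845 on the plus strand for Nr4a1, chr1:191183334-191183483 on the minus strand for Atf3 and chr12:85473740-85473889 on the plus strand for Fos. Those of Fosb (chr7:19310046-19310195), Junb (chr8:84978749-84978898) and Dusp1 (chr17:26508473-26508622) are on the minus strand. The whole palindrome TGACGTCA, which contains the core on each strand, was in the Dusp1 window alone, from -143 to -136 relative to the start site, and in 1.79% of all windows. Dusp1 held a further core at -191 to -187 on the gene's strand, upstream of the printed stretch. Fos held the core from -129 and again from -66, ahead of a TATAA match from -33 to -29. Nr4a1 held it on the minus strand at -69 to -65 and -40 to -36, and at -213 to -209 and -233 to -229, upstream of the printed stretch. The Egr motif GCGNGGGCG was in the windows of Nr4a1 and Fosb and in 5.55% of all windows. TATAA was in 2 of the 8 windows and in 24.9% of all, before the start site in Fos and at its first 5 transcribed bases in Junb, outside the printed stretch. The AP-1 motif written as TGANTCA, searched on both strands, was in 0 of the 8 windows and in 7.81% of all windows. The CArG box bound by serum response factor was in 0 of 8 and in 1.63%. Egr1 and Ier2 are not among these 8 windows and bases further upstream were not searched, so sites there would be missed. The windows of Jun and Jund had no match to any of these motifs. A match describes letters in the window and does not show binding, and the arrays do not bear on it.

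The Fos family was represented by Fos and Fosb. Fos, which encodes the founding member of the family, had an intensity of 24.5 on fucose and 32.4 off fucose, or 4.61 and 5.02 on the log2 scale. Its difference was 0.41, and 9.44% of all genes past the filter had a difference at least as large. Fosb, its close relative, went from 58.3 to 100.1 in intensity and from 5.87 to 6.65 on the log2 scale. That is a 1.72-fold higher value, matched or exceeded by 3.65% of all genes.

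The Jun family showed bright signals for Jun and Junb. Jun had an intensity of 875 on fucose and 1345 off fucose, with log2 values of 9.77 and 10.39 and a difference of 0.62. Junb, which encodes a Jun protein that can restrain c-Jun in some settings, had 531 and 950, with log2 values of 9.05 and 9.89 and a difference of 0.84. Among the 554 genes of most similar mean intensity (1 of 20 equal bins), 14 had a difference as large as that of Jun and 6 one as large as that of Junb. Both genes therefore lay toward the upper edge of genes of like brightness. Jund, whose product is less dependent on stimulation than the other Jun proteins, had 15.5 and 18.3 in intensity, or 3.96 and 4.19 on the log2 scale. Its difference of 0.24 was the smallest of the 10, and 23.6% of the genes in its bin had one as large. The second Jund probe set had 3.59 on both arrays, with a difference of -0.006, so the 2 probe sets of Jund do not both show a higher value.

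Atf3, a stress-induced member of the ATF family, went from an intensity of 9.72 on fucose to 20.3 off fucose. Its log2 values were 3.28 and 4.34, a difference of 1.06 or 2.09-fold. The on-fucose value lay close to the array median, where background makes up much of the intensity. Adding 16 intensity units to both arrays before taking logs reduced the Atf3 difference to 0.50, below 2-fold.

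Egr1, which encodes a zinc finger factor induced through MAP kinase and serum response factor, had intensities of 25.2 and 35.8. Its log2 values were 4.66 and 5.16, and the difference of 0.50 was equalled or exceeded by 6.98% of all genes. Nr4a1 had the largest difference of the 10 genes. Its intensity was 187 on fucose and 403 off fucose, with log2 values of 7.55 and 8.65, a difference of 1.10 or 2.15-fold. Within its bin of 555 genes of similar brightness, 5 had a difference at least as large. Nr4a1 stayed at least 2-fold higher under each scaling that was tried, with differences from 1.04 to 1.42.

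Ier2 and Dusp1 lay at different distances. Ier2 had intensities of 73.3 and 89.8, log2 values of 6.20 and 6.49 and a difference of 0.29, and 14% of all genes had one as large. Dusp1 had 592 and 1005, log2 values of 9.21 and 9.97 and a 1.70-fold higher value off fucose. In the Dusp1 bin, 7 of 554 genes had a difference at least as large.

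**Figure D2:**
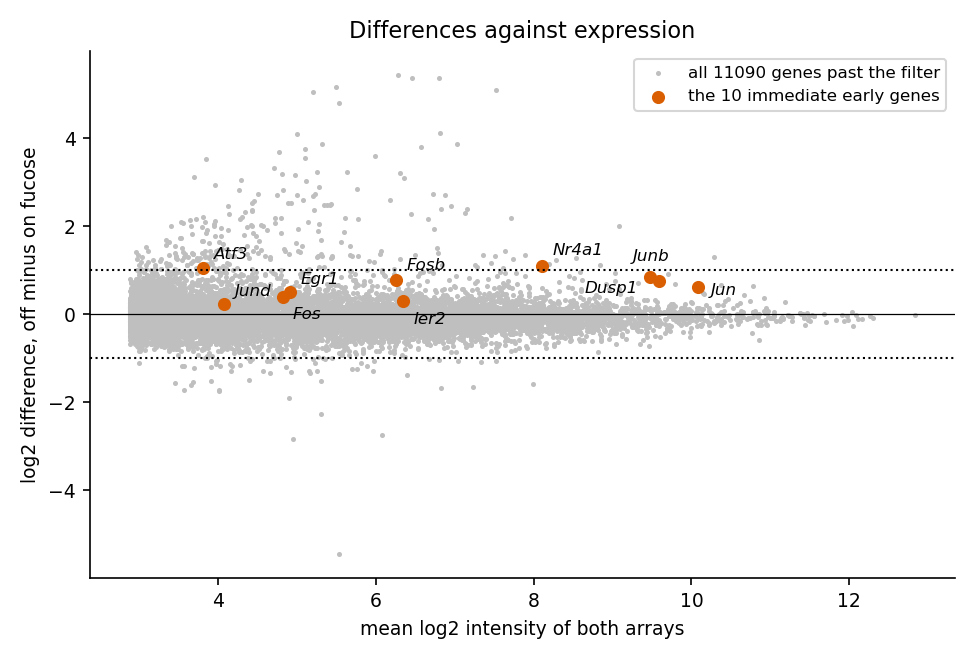
Log2 difference, off minus on fucose (vertical axis), against the mean log2 intensity of both arrays (horizontal axis) for all 11090 genes past the filter (grey) and the 10 immediate early genes (orange, named). Dotted lines mark 2-fold; the bright genes Junb, Dusp1 and Jun lie toward the upper edge of the cloud at their intensity, while Fos, Egr1, Jund and Ier2 lie further inside it.

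From the largest to the smallest difference, the order was Nr4a1, Atf3, Junb, Fosb, Dusp1, Jun, Egr1, Fos, Ier2 and Jund. With 1 array per group no spread is available to say which neighbours in this order differ. A pattern shared with other genes was not ranked, since the 2 arrays give a single difference per gene.

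Relatives of the 10 genes did not all have higher values. Of 11 further genes of the AP-1 and Maf families, 9 had probe sets of their own and 7 passed the filter, with a median difference of 0.30 and 0 of 7 at least 2-fold apart. With the median of the T cell markers subtracted from every difference (T cell centring), the median was 0.62, against 0.27 over all genes. With that centring 3 of 7 were at least 2-fold higher, beside 4.55% of all genes, namely the 3 genes given next. The largest differences were in Batf3 (0.92), a factor required by cDC1, the small Maf gene Mafg (0.81) and the Fos relative Fosl2 (0.76). Batf, a partner of Jun proteins in lymphocytes, had -0.37. Among 9 ATF and CREB genes past the filter the median was 0.13. Atf6, the endoplasmic reticulum stress sensor, had 0.88, Creb3 -0.47, Creb1, which encodes the kinase-activated factor of the cAMP pathway, -0.36, and Atf7 -0.33.

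The paralogues of Egr1 and Nr4a1 had differences of both signs, and whether they differ from Egr1 and Nr4a1 was not tested. Egr3, an Egr1 relative induced in activated T cells, had a log2 value of 4.55 with fucose and 3.42 without. Its difference of -1.13, or 2.19-fold lower off fucose, was under 2-fold with T cell centring (-0.81) and with an offset of 16 (-0.56). Egr2 had -0.22, which turned to 0.10 with T cell centring. Nab2, a corepressor that binds Egr proteins and is itself an Egr target, went from 7.56 to 6.86 (-0.70), and its second, dimmer probe set had -0.39. Nr4a3, a relative of Nr4a1, had 0.57, and Nr4a2 had 0.01. Over the 7 genes of this list, all past the filter, the median was -0.18, which turned to 0.14 with T cell centring, and 1 of 7 was at least 2-fold lower.

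Among 25 other immediate early genes at or above 2.88 on both arrays, 16 differences were positive and 4 reached 2-fold, those of Tnfaip3, Rgs2, Sik1 and Per1. With Klf4, which passed the filter through its off-fucose value, 17 of 26 were positive with a median of 0.32. Over all genes 42.2% were positive. T cell centring gave 23 of 26 positive, a median of 0.64 and 8 at least 2-fold higher. Over all genes that centring gave a median of 0.27 and 4.55% at least 2-fold higher. The share of all genes positive with it was not computed, and 8 of 8 housekeeping genes were positive with it. Klf4, a Krüppel-like factor of monocytes and other myeloid cells, had 2.81 and 4.79 (1.98, or 0.93 with an offset of 16). Tnfaip3, which encodes the NF-kappaB inhibitor A20, had 6.69 and 8.04 (1.34). Rgs2, a regulator of G protein signalling, had 1.33, with 0.39 on its second probe set, which was near background (2.52 and 2.91). Sik1, a salt-inducible kinase gene and CREB target, went from 7.90 to 9.18 (1.28). The clock gene Per1 (1.12) was named after its values were seen. None of the 26 was at least 2-fold lower. Gadd45b, a stress gene that acts on MAP kinase signalling, had the most negative value of this list (-0.80) and was picked out after the values were seen.

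The wider MAP kinase pathway showed smaller differences at the level of RNA. All 18 measured genes of kinases and serum response factor partners lay within 2-fold, with a median of -0.07 that turned positive with loess (0.02) and with T cell centring (0.25). Srf itself had 6.65 and 6.59. Elk4 (-0.46) and Map2k3 (-0.42) had the largest differences in size, followed by Map2k4 (-0.34) and Mapk8 (-0.33). Among the other dual-specificity phosphatases the median over 9 genes was 0.01. Dusp5, a nuclear phosphatase of ERK, went from 7.22 to 8.57 (1.35), whereas Dusp2, a phosphatase of activated lymphocytes and myeloid cells, went from 8.48 to 7.81 (-0.67). Dusp4 had 0.30 and Dusp7 -0.30, the latter 0.02 with T cell centring.

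Heat shock genes, which also respond to cell handling, held 2 large differences. Hspa1b went from 5.97 to 8.29 (2.31) and Hspa1a from 6.62 to 8.82 (2.20). The 2 genes are near-identical copies, so their probe sets may share signal. Of the 9 heat shock genes past the filter, the other 7 lay within 2-fold, among them Bag3 (0.58) and Dnajb1 (0.48), and the median was 0.39.

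**Figure D3:**
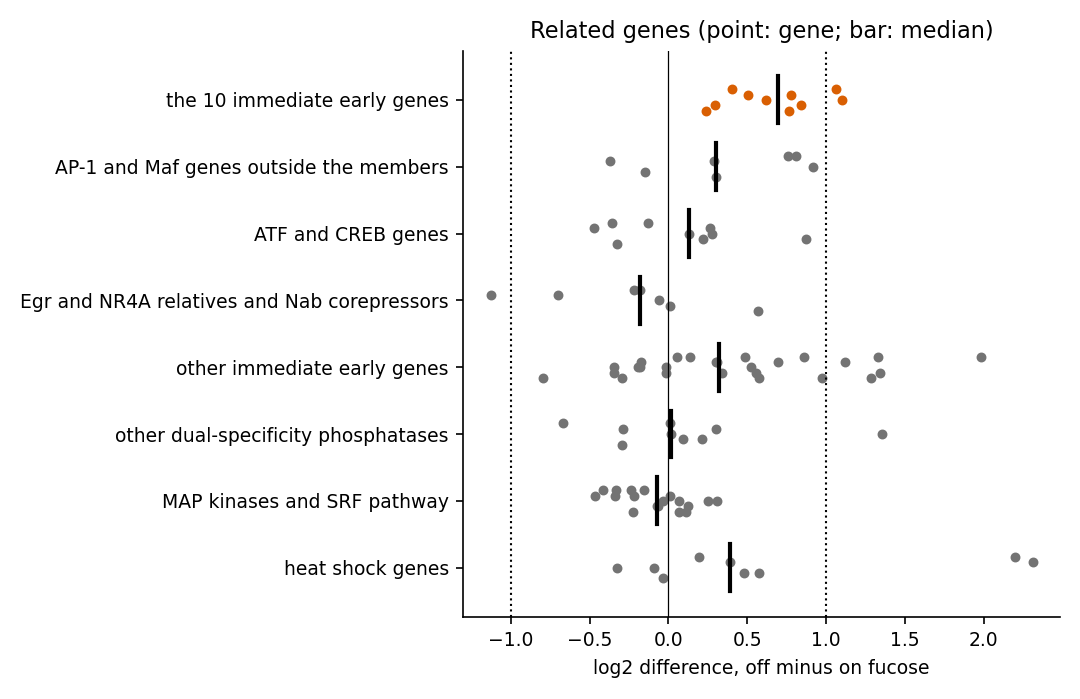
Log2 difference, off minus on fucose (horizontal axis), of each gene past the filter (points) in the 10 immediate early genes and 7 lists of related genes (rows), with the median of each row as a black bar and 2-fold as dotted lines. The 10 genes have a median of 0.69, whereas the relatives of Egr1 and Nr4a1 have -0.18 and the MAP kinase genes -0.07.

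Markers of other blood cells differed between the arrays together with the 10 genes. Because the filter uses the mean over the arrays, a marker below 2.88 on fucose passed it only through its off-fucose value and had to have a positive difference. Counts of markers are therefore given for genes at or above 2.88 on both arrays. In the neutrophil and granulocyte precursor list, 7 of 12 genes met this, and 7 of 7 had positive differences, 5 of them at least 2-fold. Among them were Elane and Ctsg, which encode neutrophil elastase and cathepsin G (5.38 and 5.37), and the myeloperoxidase gene Mpo (5.09). The whole list of 12 summed to an intensity of 126 on fucose and 3005 off fucose.

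Monocyte and macrophage genes had 5 of 5 positive differences, with the fibronectin gene Fn1 at 4.09. The list summed to 1474 and 2300 over 9 genes, most of it from Ly6c2 (1389 and 1895), and to 85.2 and 405 without that gene. The coagulation factor gene F13a1, at 2.77 on fucose, had 3.06, or 1.67 with an offset of 16. Erythroid genes had 7 of 7 positive and sums of 86.4 and 523 over all 8 measured genes, with 3.76 for Slc4a1, the red cell anion exchanger, and 2.91 for the carbonic anhydrase gene Car2. Basophil and mast cell genes had 5 of 6 positive, with the protease genes Prss34 and Mcpt8 at 4.12 and 3.79. Il6ra, a receptor gene that other leukocytes also express, made up most of that list's intensity (1294 and 1100), and the other 7 genes summed to 114 and 1124. Megakaryocyte genes had 3 of 3 positive, led by Ppbp (2.27), and blood progenitor genes 2 of 3, led by Gfi1b (3.23). Pf4 and Cd34 had 2.47 and 2.71 on fucose, near background, and differences of 1.01 and 2.20, or 0.34 and 1.03 with the offset.

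The genes of dividing cells had 9 of 9 positive differences, with Ccna2 and Plk1 at 2.18 each and Mki67 at 2.17, and sums over all 10 of 181 and 711. The cDC1 list had 9 of 10 positive and sums over all 12 of 315 and 746, with Irf8 at 2.50 and Naaa at 2.39. A second Irf8 probe set was near background (2.81 on fucose and 3.03 off fucose) and had 0.21. T cell genes had 0 of 8 positive, a median of -0.32 and sums of 11597 and 9481, and Cd5 (-0.50) and Bcl11b (-0.49) had its most negative values. The NK cell list had 1 of 5 positive, with Tbx21 at -0.66, while Klrk1, below 2.88 on fucose, had 0.81. B cell genes summed to 81.5 and 73.0 over 7 genes, with 2 of 4 positive. Blk had 0.41 and Cd22 -0.59, and the median of the list, -0.21, turned to 0.11 with T cell centring. The 8 housekeeping genes lay from -0.23 in Ywhaz, beside -0.22 in Actb, to 0.16, with 4 of 8 positive, or 8 of 8 with T cell centring. In bulk RNA, more cells of a type and more RNA per cell cannot be told apart, and the part of cell composition, handling and sex in the differences of the 10 genes was not tested and cannot be told apart from that of fucose with 1 array per group.

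**Figure D4:**
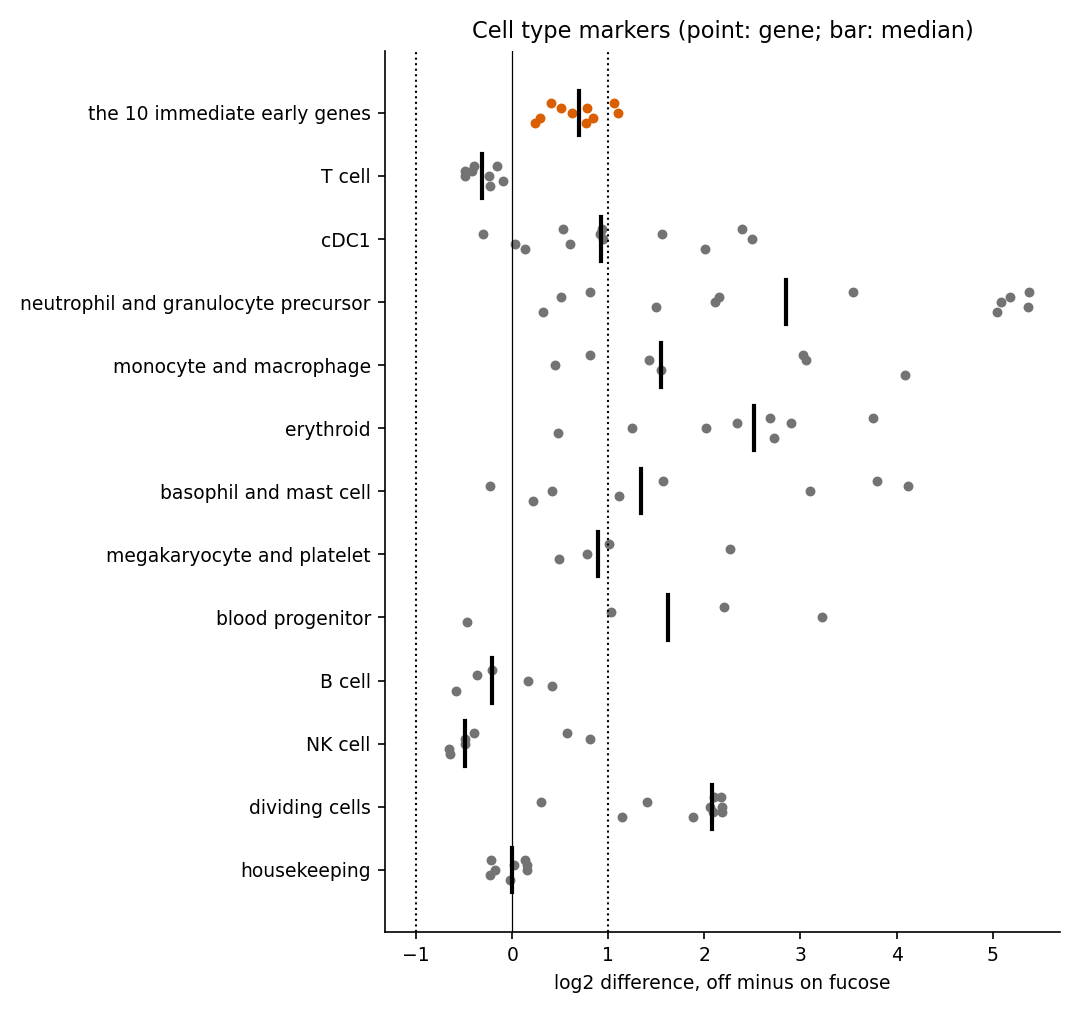
Log2 difference, off minus on fucose (horizontal axis), of each gene past the filter (points) in the 10 immediate early genes and 12 marker lists (rows), with the median of each row as a black bar and 2-fold as dotted lines. Points reach 5.38 in the granulocyte precursor row, where 5 of 12 genes passed the filter only through the off-fucose array, whereas all T cell markers lie below 0 with a median of -0.32.

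For the 10 immediate early genes, the scalings tried changed the size but not the sign of the differences. Median and T cell centring added a positive value and an offset cannot turn a sign, so these settings could not have changed it. Centring all differences on the T cell markers raised the count of the 10 genes at least 2-fold higher from 2 to 5, which added Junb, Fosb and Dusp1. That centring also raised the share of all genes at least 2-fold higher to 4.55%, with 505 higher and 20 lower, in place of 263 and 57. It moved the median of all genes from -0.05 to 0.27 and that of the 10 genes to 1.01.

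**Figure D5:**
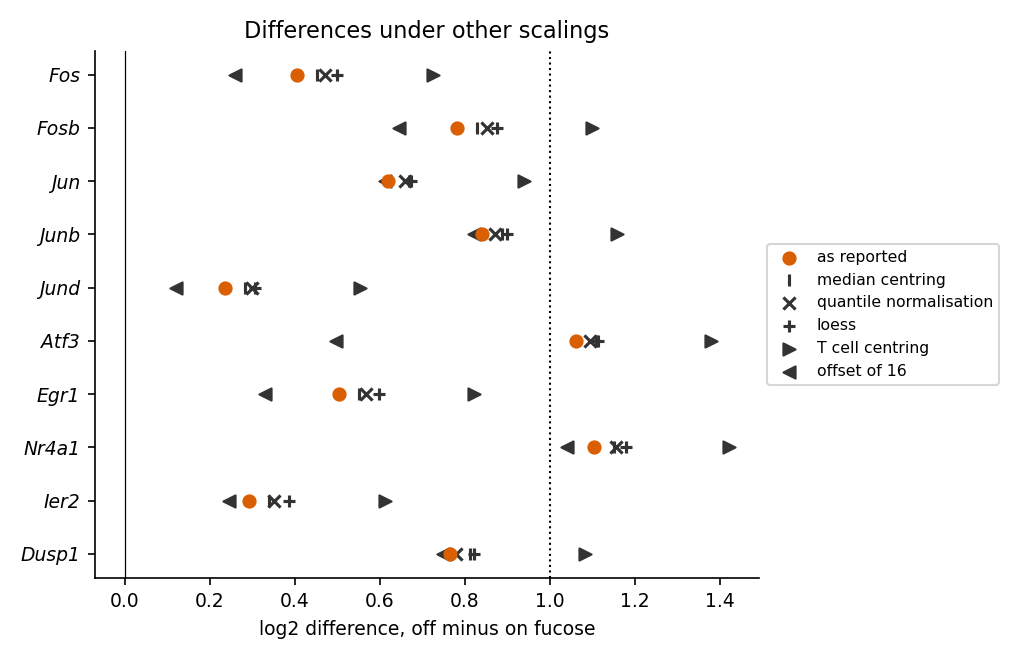
Log2 difference, off minus on fucose (horizontal axis), of each of the 10 genes (rows) as reported (orange) and under 5 other ways of scaling the arrays (black symbols), with 2-fold as a dotted line. Every symbol lies above 0; T cell centring gives the largest values and an offset of 16 the smallest, and Nr4a1 lies beyond 2-fold under all of them.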

How the data were processed

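The deposited table gave the intensity of 41345 probe sets on each array, on a linear scale from 2.74 to 9512. Per the submitters' processing notes the authors used RMA, which normally corrects background, quantile-normalises and summarises probes, with the version and settings not given in the sources used here. RNA was labelled from 9 ng per array, per the labels' protocols. Once sorted, log2 values differed between arrays by a mean of 0.028, so a shift of all genes would not be visible. Log2 was taken of each intensity (pandas 2.3.3, numpy 2.4.6, Python 3.11.15). Gene symbols came from the platform annotation: 23521 probe sets had 1 symbol, 1814 several and 16010 none listed here, and only the first class was used. All 10 symbols matched RefSeq by Entrez ID.

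The filter kept genes whose mean log2 intensity reached the median over genes. Genes were compared by fold, with 2-fold as the threshold and 20 bins of mean intensity for genes of like brightness. Besides the 10 genes, up to 4 genes with the largest differences per list of related genes and 2 per marker list are named, with Egr2, Egr3, Nr4a2, Nr4a3, Fosl2, Srf, Cd3e, Xcr1, Itgax, Mpo and Mki67; Uty, Xist, Per1 and Gadd45b fall outside this rule. The members, lists and rule were chosen with earlier results of these data known. Alternatives were median centring, quantile normalisation, loess (statsmodels 0.14.6, span 0.3), centring on 8 T cell genes, an offset of 16, the mean of probe sets, and thresholds of 1.5-fold and 3-fold. The steps were checked on simulated data. Arrays have no read depth.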

Additional observations from a re-analysis of the deposited data

How the results depend on the processing

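Across 6 alternatives (median centring, quantile normalisation, loess, T cell centring, an offset of 16 intensity units and the mean of probe sets), all 60 differences of the 10 genes were positive. The 2 genes at least 2-fold higher and the median of 0.69 became 5 genes and 1.01 with T cell centring, and 1 gene and 0.55 with the offset. The centring adds 1 value to every difference and the offset shrinks those of dim genes, by construction. Both median and T cell centring added a positive value, and an offset cannot turn a sign. The mean of probe sets could change Jund alone, as the other 9 genes had 1 probe set. Most of the 60 signs were therefore fixed beforehand, and their count is no support for the direction. At 1.5-fold 6 genes were higher, beside 5.77% of all genes, and at 3-fold 0. The share of all genes at 3-fold, or at 2-fold with the offset, was not computed, so those counts have no background beside them. Of the 10 genes, 0 were lower at either threshold or under any scaling. Averaging both probe sets of Jund gave 0.12 in place of 0.24. All 10 genes passed the expression filter, so the median over genes past it was the same 0.69, and their mean was 0.66. No paired analysis was possible because there is only 1 array in a group, nor could an array be left out. Signal close to background limits the differences of Atf3, Jund, Fos and Egr1, whose mean log2 intensities lay under 5.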
